A study of Drosophila melanogaster with 6 samples.

Results

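The 7 genes described here belong to the fat body of Drosophila melanogaster larvae. They encode storage proteins and the main lipid carrier that it secretes into the hemolymph, and the fat body proteins Fbp1 and Fbp2. The 7 genes were taken by symbol from a table of 17807 genes, and all 7 were found and passed the filter on low values: Lsp1alpha, Lsp1beta, Lsp1gamma, Lsp2, Fbp1, Fbp2 and apolpp. Gene expression was measured by RNA sequencing in 6 libraries of muscle-enriched lysate, prepared from 7 to 10 larvae per library at about 90 h of growth, late in the third larval instar. In the 3 control libraries (mCherryRNAi, genotype UAS-dcr2;;Dmef2-Gal4>UAS-mCherryRNAi) the muscle driver Dmef2-Gal4 expressed a hairpin against mCherry, a fluorescent protein with no gene in the fly genome. In the 3 knockdown libraries (tmodRNAi, genotype UAS-dcr2;;Dmef2-Gal4>UAS-tmodRNAi) the hairpin targeted tmod, which encodes tropomodulin, the cap of the pointed ends of actin filaments. Every library carried the UAS-dcr2 transgene, which strengthens RNA interference, and the driver acts in muscle, so neither genotype was designed to alter the fat body. The labels' tissue field names adult body wall, whereas the growth protocol and the title name larvae.

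The larval fat body is the insect counterpart of liver and adipose tissue. During the last larval stage it secretes hexamerins, large proteins of 6 subunits that circulate in the hemolymph as a store of amino acids, and later takes them back up for use in metamorphosis. It also makes lipophorin, the lipoprotein particle that carries lipid between fat body, gut, muscle and other tissues. The steroid hormone ecdysone, which times the end of larval life, is known to control several of these genes, Fbp1 among them.

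The libraries held between 83824273 and 110151028 reads assigned to genes, and a floor of 3 reads corresponded to at most 3.31 normalized counts, far below every value of the 7 genes. The targeted gene was examined first. The mCherryRNAi libraries held 70528, 92366 and 75101 normalized counts of tmod, and the tmodRNAi libraries 13993, 13734 and 12980 (log2 fold change -2.54, SE 0.12, limma adjusted p = 0.0045), values being given here and throughout in the order of replicates 1, 2 and 3. mCherryRNAi replicate 1 stood apart from its own group: across genes, its log2 values correlated with tmodRNAi replicate 1 at r = 0.975, against 0.957 and 0.969 with mCherryRNAi replicates 2 and 3 (a description of libraries, since genes are not independent replicates). Results for the 7 genes and their share of the counts are therefore also given without it, but those for the gene lists and ratios are not. Muscle transcripts moved with the genotype: a list of 15 muscle markers took 3.27% to 8.22% of the normalized counts in the control libraries and 12.4% to 13.8% in the tmodRNAi libraries. The 8.22% was that of mCherryRNAi replicate 1. Of the 15, 7 were higher and 0 lower by limma, where 10.9% of all tested genes were called higher. In bulk lysates fewer cells of a type and less RNA per cell cannot be told apart.

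The 3 Lsp1 genes encode the alpha, beta and gamma subunits of larval serum protein 1, a hexamerin. They were the members that passed the test: each rose in the tmodRNAi libraries, to between 5.08 and 6.77 times the control mean. Lsp1alpha (FBgn0002562; chromosome X, 12490291 to 12492982 on the plus strand in BDGP6.54) had 13700, 15980 and 9135 normalized counts in the controls and 31018, 149150 and 82472 in the knockdown. The lowest knockdown library was 1.94 times the highest control, and the knockdown libraries spread far more widely than the controls, with replicate 1 low and replicate 2 high. Its log2 fold change was 2.53 (SE 0.58, 95% interval 1.12 to 3.93, limma adjusted p = 0.036).

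Lsp1beta (FBgn0002563; 2L, 898500 to 901316, plus strand) had 41298, 43075 and 31928 normalized counts in the controls and 88246, 315593 and 242120 in the knockdown. The groups did not overlap and tmodRNAi replicate 1 was again the lowest of its group. The log2 fold change was 2.30 (SE 0.48, 95% interval 1.13 to 3.46, limma adjusted p = 0.032). Lsp1gamma (FBgn0002564; 3L, 66430 to 68995, plus strand) had 48972, 46074 and 51874 normalized counts in the controls, the smallest ratio of highest to lowest control (1.13) among the 7 genes, and 113537, 323627 and 308487 in the knockdown. The lowest knockdown library was 2.19 times the highest control. Its log2 fold change was 2.20 (SE 0.41, 95% interval 1.19 to 3.21, limma adjusted p = 0.031).

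**Figure D1:**
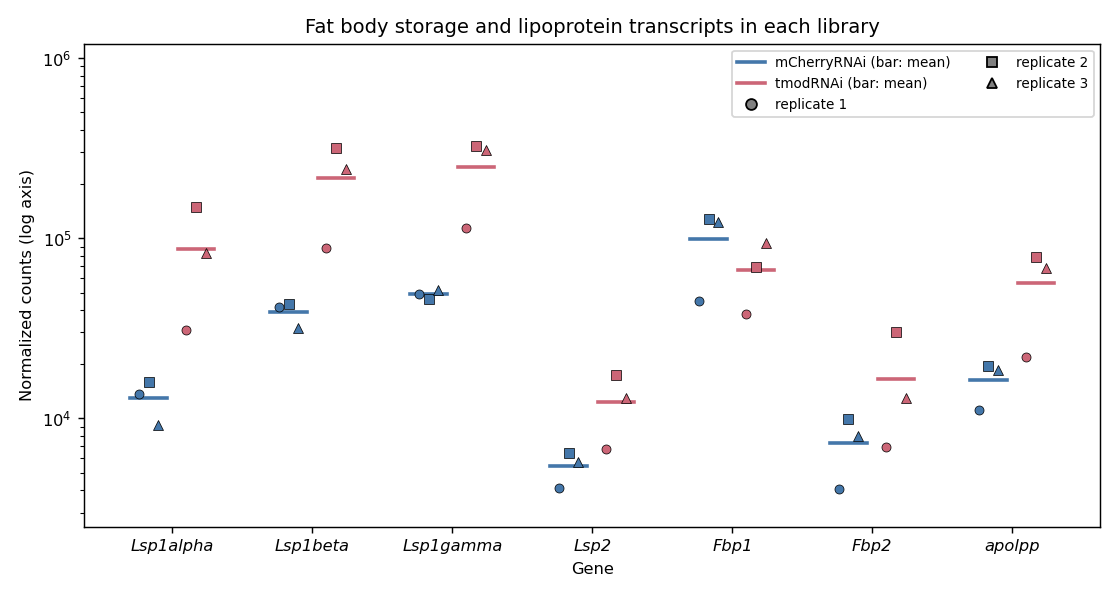
Normalized counts (log axis) of the 7 genes in each of the 6 libraries; colour gives the genotype, marker shape the replicate number and the horizontal bar the group mean. The Lsp1 genes separate by genotype, with tmodRNAi replicate 1 lowest among the knockdown libraries for each of the 7 genes, whereas Fbp1 overlaps between the genotypes.

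These 3 made up the members' calls: 3 of 7 passed the threshold (adjusted p under 0.05, Benjamini-Hochberg over all genes), all higher in tmodRNAi, where 23.8% of the 10969 genes tested were called in either direction and 10.9% as higher. The calls depended on which libraries were included. Without mCherryRNAi replicate 1 the same 3 of 7 passed (limma adjusted p = 0.021, 0.015 and 0.012 for alpha, beta and gamma), in a fit that called 47.4% of genes. Without tmodRNAi replicate 1, Lsp1beta (0.030) and Lsp1gamma (0.018) passed and Lsp1alpha did not (0.052), in a fit that called 0.538%. When any 1 of the other 4 libraries was left out, none of the 7 passed by limma, while 3 to 5 had an unadjusted p under 0.05. Those fits called 0.0182% (without mCherryRNAi replicate 2) and 0% (without mCherryRNAi replicate 3, tmodRNAi replicate 2 or tmodRNAi replicate 3) of all genes, with 3227 to 3614 genes at an unadjusted p under 0.05. In limma without a trend in the variance, which called 8.7% of genes, Lsp1gamma passed (adjusted p = 0.049) and Lsp1alpha (0.055) and Lsp1beta (0.051) did not. Over the 6 fits the log2 fold change ranged from 2.01 to 3.14 for Lsp1alpha, 1.93 to 2.85 for Lsp1beta and 1.94 to 2.69 for Lsp1gamma, with adjusted p-values of 0.012 to 0.13. An exact two-sided permutation test gave p = 0.1 for each Lsp1 gene, the smallest value that 3 libraries against 3 allow.

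The 3 subunits were compared as proportions of their sum. On normalized counts per kilobase of merged exons, Lsp1gamma made up 49.2%, 45.9% and 57.9% of the summed Lsp1 level in the controls and 50.8%, 43.0% and 50.8% in the knockdown. Lsp1beta made up 36.4% ± 3.5 of the control level and 36.8% ± 1.2 of the knockdown level (SD, n = 3 each). Lsp1alpha made up 12.7% ± 2.7 and 15.0% ± 3.3. The groups overlapped for each subunit (exact two-sided permutation p = 0.5, 0.9 and 0.6 for alpha, beta and gamma), so at this number of libraries no shift between subunits was resolved. The order gamma, beta, alpha held within each of the 6 libraries. How reads that match more than 1 Lsp1 gene were assigned is not given in the sources used here, so their separate levels carry that uncertainty.

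Lsp2 encodes the subunit of the second larval serum protein, also a hexamerin. Lsp2 (FBgn0002565; 3L, 12129393 to 12131869, plus strand) had 4099, 6416 and 5726 normalized counts in the controls and 6772, 17435 and 12968 in the knockdown. The groups did not overlap, but the lowest knockdown library was only 1.06 times the highest control. The log2 fold change of 1.12 (SE 0.37, 95% interval 0.22 to 2.01) did not pass the threshold (limma adjusted p = 0.069), although it did in DESeq2 (0.0065), which called 5 of the 7 genes and 40.1% of all genes. Lsp2 rose by 0.93 on the log2 scale without mCherryRNAi replicate 1 (limma adjusted p = 0.095). An antisense RNA, asRNA:CR11538, shares 2096 bp of exon with Lsp2 and was listed at 0 in the 6 libraries.

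apolpp encodes the precursor of apolipophorins I and II, the protein scaffold of lipophorin. apolpp (FBgn0087002; chromosome 4, 1060969 to 1077273, plus strand) had 11065, 19479 and 18472 normalized counts in the controls and 21880, 78645 and 68216 in the knockdown. tmodRNAi replicate 1 lay just above the controls, at 1.12 times the highest of them, and the other knockdown libraries lay far above. The log2 fold change was 1.63 (SE 0.52, 95% interval 0.35 to 2.91, limma adjusted p = 0.066). It passed in DESeq2 (adjusted p = 0.0016), and it was 1.37 by limma without mCherryRNAi replicate 1 (limma adjusted p = 0.088). Zyx on the opposite strand shares 96 bp of exon with apolpp and had 5771 to 7125 normalized counts over the 6 libraries.

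Neither Fbp1 nor Fbp2, whose symbols stand for fat body protein, passed the threshold. Fbp1 encodes the receptor through which the fat body takes hexamerins back up. Fbp1 (FBgn0000639; 3L, 14094589 to 14098053, minus strand) had 44712, 128182 and 122626 normalized counts in the controls and 37921, 69347 and 93929 in the knockdown. The groups overlapped: control replicate 1 lay among the knockdown libraries, while control replicates 2 and 3 lay above all of them. Its log2 fold change was -0.50 (SE 0.52, 95% interval -1.77 to 0.76, limma adjusted p = 0.48). This interval includes no change as well as a fall by a log2 value of more than 1. Without mCherryRNAi replicate 1 the log2 fold change was -0.999 (limma adjusted p = 0.068), and without tmodRNAi replicate 1 it was -0.14 (0.86).

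Fbp2 encodes a protein of the alcohol dehydrogenase family that accumulates in the larval fat body. Fbp2 (FBgn0000640; 2L, 9426784 to 9427917, plus strand) had 4056, 9890 and 8001 normalized counts in the controls and 6934, 30110 and 12903 in the knockdown. tmodRNAi replicate 1 fell within the control range and replicate 2 stood far above the rest. The log2 fold change of 1.02 (SE 0.59, 95% interval -0.42 to 2.47) did not pass (limma adjusted p = 0.23). It was 0.47 without tmodRNAi replicate 2 (adjusted p = 0.51) and 0.65 without mCherryRNAi replicate 1 (0.40). CG42847 on the same strand shares 48 bp of exon with Fbp2.

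**Figure D2:**
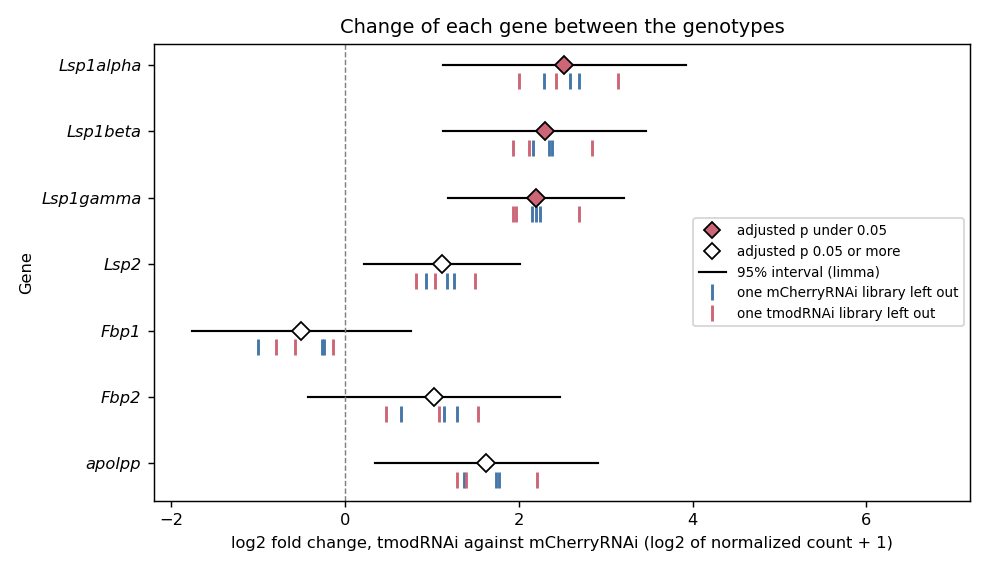
Log2 fold change of each gene, tmodRNAi against mCherryRNAi, with its 95% interval from limma; filled diamonds mark an adjusted p under 0.05 and the ticks below show the value when 1 library of the named genotype was left out. The Lsp1 genes lie between 2.20 and 2.53, Fbp1 is at -0.50, and no tick crosses 0 for any gene.

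Of the 7 genes, 6 had a higher mean in tmodRNAi and the median log2 fold change was 1.63, against 0.02 over the 10969 genes tested. The groups did not overlap for 5 of 7, where 51.4% of all tested genes did not overlap. Within the knockdown the lowest library was replicate 1 for 7 of 7 genes. For comparison, replicate 1 was the lowest knockdown library for 16 of 19 other fat body genes and for 32.5% of all tested genes. The spread within the knockdown was wide for each member, with the highest library between 2.48 times (Fbp1) and 4.81 times (Lsp1alpha) the lowest. Within the controls this ratio ran from 1.13 for Lsp1gamma to 2.87 for Fbp1. Control replicate 1 was the lowest control for Lsp2, Fbp1, Fbp2 and apolpp but not for the Lsp1 genes. It was the lowest control for 44.1% of all tested genes and for 36.8% of the other fat body genes.

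Together the 7 genes took 0.163%, 0.304% and 0.276% of the normalized counts in the controls and 0.300%, 0.958% and 0.803% in the knockdown. tmodRNAi replicate 1 lay just below control replicate 2, so the groups overlapped, and the difference of 0.439 percentage points gave p = 0.2 in the exact two-sided permutation test. This difference was 0.397 percentage points without mCherryRNAi replicate 1 (exact permutation p = 0.4). The overlap depended on the denominator. As summed normalized counts the 7 genes had 167903 to 269095 in the controls and 306307 to 983907 in the knockdown, with no overlap. Without the 10 most abundant other genes in the total, the difference was 0.605 percentage points, and relative to the median tested gene it was 1.44 on the log2 scale, each with no overlap (exact permutation p = 0.1). The make-up of this total, a measure not planned beforehand, separated the genotypes. Fbp1 made up 26.6%, 47.6% and 49.5% of it in the controls and 12.4%, 7.05% and 11.4% in the knockdown, with no overlap (exact permutation p = 0.1, the smallest possible). The 3 Lsp1 genes together made up 61.9%, 39.1% and 37.5% in the controls and 76.0%, 80.1% and 77.1% in the knockdown, also with no overlap (exact permutation p = 0.1). Here mCherryRNAi replicate 1 lay between the other controls and the knockdown libraries. Both percentages share 1 total, so a rise of the Lsp1 genes by itself lowers the percentage of Fbp1, and they are not separate results. The normalized counts of Fbp1 overlapped between the genotypes (log2 fold change -0.50, limma adjusted p = 0.48).

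**Figure D3:**
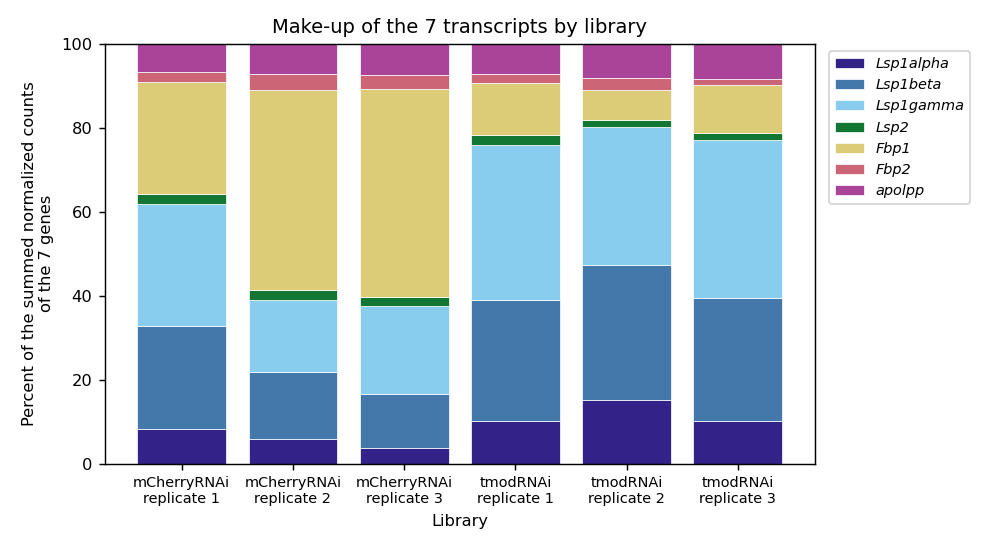
Stacked bars of the percent that each gene contributed to the summed normalized counts of the 7 genes, 1 bar per library. Fbp1 fills 26.6% to 49.5% of the bar in the controls and 7.05% to 12.4% in the knockdown, while the Lsp1 genes fill 37.5% to 61.9% and 76.0% to 80.1%.

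Ratios between members were compared library by library to show where they diverged. They were chosen after the values were seen, and 8 were computed. The log2 ratio of Fbp1 to summed Lsp1 was -1.22, 0.29 and 0.40 in the controls and -2.62, -3.51 and -2.75 in the knockdown. The difference of the means was -2.78, the largest of the 8, and the groups did not overlap (exact permutation p = 0.1, 0.16 after Benjamini-Hochberg adjustment over the 8 ratios). Lsp2 and Fbp2 relative to summed Lsp1 were lower in the knockdown by log2 differences of -1.16 and -1.26, with no overlap and the same p-values. Fbp1 was also lower relative to Fbp2, at log2 ratios of 3.46, 3.70 and 3.94 in the controls and 2.45, 1.204 and 2.86 in the knockdown (difference -1.53, exact permutation p = 0.1, adjusted 0.16). For apolpp relative to summed Lsp1 the difference was -0.65 and the groups overlapped (exact permutation p = 0.2, adjusted 0.27).

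Per kilobase of merged exons, the order of levels in the controls was Fbp1, Lsp1gamma, Lsp1beta, Fbp2, Lsp1alpha, Lsp2 and apolpp. The group mean was 28429 ± 13469 normalized counts per kilobase for Fbp1 and 1389 ± 391 for apolpp (SD, n = 3). Over the control libraries Fbp1 overlapped Lsp1gamma and Fbp2 overlapped Lsp1alpha, and each pair kept its order within 2 of 3 libraries, so these neighbours did not differ beyond their spread. Lsp2 also overlapped apolpp over the libraries but was the higher within 3 of 3. In the knockdown the order was Lsp1gamma (99380 ± 46849), Lsp1beta, Lsp1alpha, Fbp1 (19355 ± 8102), Fbp2, Lsp2 and apolpp (4780 ± 2568). Each of these neighbours overlapped the next over the knockdown libraries, although the order held within 3 of 3 libraries for Lsp1gamma over Lsp1beta, Lsp1beta over Lsp1alpha, Lsp1alpha over Fbp1 and Fbp2 over Lsp2. It held within 2 of 3 for Fbp1 over Fbp2 and for Lsp2 over apolpp. By mean level per kilobase, Lsp1gamma ranked 362nd of 10910 genes in the controls and 82nd in the knockdown, and Fbp1 258th and 328th.

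Proteins that load, carry and receive lipoprotein lipid were compared as a list of 12 genes, of which 11 were tested. By limma 3 rose and 3 fell (54.5% of those tested), where 23.8% of all tested genes were called in either direction. The median log2 fold change of the list was -0.32. Apoltp, which encodes the apolipoprotein of the lipid transfer particle that loads lipophorin, had 165, 242 and 241 normalized counts in the controls and 544, 1693 and 1409 in the knockdown. It therefore rose without overlap, with tmodRNAi replicate 1 lowest of its group as for apolpp (log2 fold change 2.35, SE 0.45, limma adjusted p = 0.031). Relative to Apoltp, apolpp was lower in the knockdown by a log2 difference of -0.73 (exact permutation p = 0.1, 0.16 adjusted over the 8 ratios). cv-d, a gene for a lipoprotein of the vitellogenin family, rose by 0.43 on the log2 scale (adjusted p = 0.034). NLaz, a lipocalin that carries small lipids, had 654, 2822 and 2307 normalized counts in the controls and 297, 180 and 193 in the knockdown, a log2 fold change of -2.89 (limma adjusted p = 0.031). Its control replicate 1 was low, between the other controls and the knockdown. The lipophorin receptor genes went in opposite directions by small amounts, with a log2 fold change of -0.45 for LpR1 and 0.41 for LpR2 (limma adjusted p = 0.043 and 0.037; named for their role, outside the naming rule).

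Other genes known from the larval fat body were compared as a list of 20, of which 19 were tested and Pepck1 was listed at 0. Of these 19, 5 rose and 2 fell (36.8%), where 23.8% of all tested genes were called, and the median log2 fold change was 0.81. Hn, the gene of phenylalanine hydroxylase, had 3480, 888 and 1479 normalized counts in the controls and 9147, 12331 and 15302 in the knockdown (log2 fold change 2.85, SE 0.50, limma adjusted p = 0.031). Sardh, the gene of sarcosine dehydrogenase, had 109, 74.8 and 97.3 in the controls and 231, 697 and 464 in the knockdown (log2 fold change 2.18, SE 0.41, limma adjusted p = 0.031). Tsf1, the gene of the iron carrier transferrin, had 20000, 12176 and 10077 in the controls and 35462, 42881 and 41166 in the knockdown (log2 fold change 1.56, SE 0.26, limma adjusted p = 0.031). These 3 were named for their small adjusted p, and none of them overlapped between the genotypes. The groups did not overlap for 10 of the 19 listed genes and for 51.4% of all tested genes. In each of the 3, tmodRNAi replicate 1 was the lowest knockdown library, as in 16 of the 19 and in 32.5% of all tested genes. The 2 genes that fell, named after their values were seen, were srp, the gene of a GATA factor of fat body and blood, and fat-spondin, which encodes a secreted fat body protein (log2 fold change -0.71 and -0.79, limma adjusted p = 0.034 each). The summed level of the list was 110425 to 120727 normalized counts in the controls and 139519 to 208215 in the knockdown.

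Markers of other cell types in the lysate were counted in the same fit, which called 23.8% of all tested genes. Hemocyte markers (9 tested, 2 higher and 3 lower, median log2 fold change 0.07) took 0.252% to 0.274% of the counts in the controls and 0.289% to 0.358% in the knockdown. The higher 2 were PPO1 and PPO2 (log2 fold change 0.82 and 0.75), and Hml was higher without passing (0.68). The lower 3 were eater, He and crq (log2 fold change -0.56, -0.47 and -0.45), so the larger sum was not shared by the list. Oenocyte and tubule markers (6 tested, 3 higher) took 0.0571% to 0.0672% and 0.109% to 0.125%. Nearly all of this sum was Cyp4g1 (50424 to 68295 normalized counts in the controls and 110635 to 125822 in the knockdown). Besides it, eloF and Irk3 were called higher and CG17560 was higher without passing. Uro and ZnT35C, at 0 to 63.1 normalized counts, had negative log2 fold changes (-1.75 and -1.59, limma adjusted p = 0.38 each). Epidermis and cuticle markers (12 tested, 4 lower) overlapped between the genotypes, at 9.46% to 14.5% and 10.1% to 12.2%. Neuron markers (8 tested, 1 higher) took 0.00933% to 0.0120% and 0.0123% to 0.0155%. Gut markers (7 of 10 tested, 1 lower) took 0.0132% to 0.0246% and 0.00936% to 0.0101%. Nearly all of that sum was LManII, a lysosomal alpha-mannosidase gene (log2 fold change -0.86, limma adjusted p = 0.034), while the other 6 tested gut markers had positive log2 fold changes that did not pass, and the median of the list was 1.23. Salivary gland markers (9 tested, 0 called by limma and 1 at an unadjusted p under 0.05) took at most 0.00347% of any library. The part of cell make-up, including the muscle share given above, in the values of the 7 genes was not tested.

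Genes of ecdysone timing were compared because Fbp1 is known to respond to this hormone. Of 14 tested, 1 rose and 6 fell (50%), where 23.8% of all tested genes were called, and the median log2 fold change was -1.43. EcR, the ecdysone receptor gene, had 36815, 54434 and 58477 normalized counts in the controls and 27657, 22837 and 20209 in the knockdown (log2 fold change -1.07, SE 0.21, limma adjusted p = 0.031). E23, the gene of an ecdysone-induced transporter, had 1800, 10879 and 7884 in the controls and 897, 672 and 648 in the knockdown (log2 fold change -2.87, limma adjusted p = 0.036). In both, as for Fbp1 and for 44.1% of all tested genes, control replicate 1 was the lowest control. Unlike Fbp1, neither overlapped between genotypes, and tmodRNAi replicate 1 was the highest knockdown library. The groups did not overlap for 11 of the 14 listed genes and for 51.4% of all tested genes. Kr-h1, the gene of a juvenile hormone response factor, fell by 0.70 on the log2 scale (adjusted p = 0.031). The part of developmental stage in the values of the 7 genes was not tested.

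**Figure D4:**
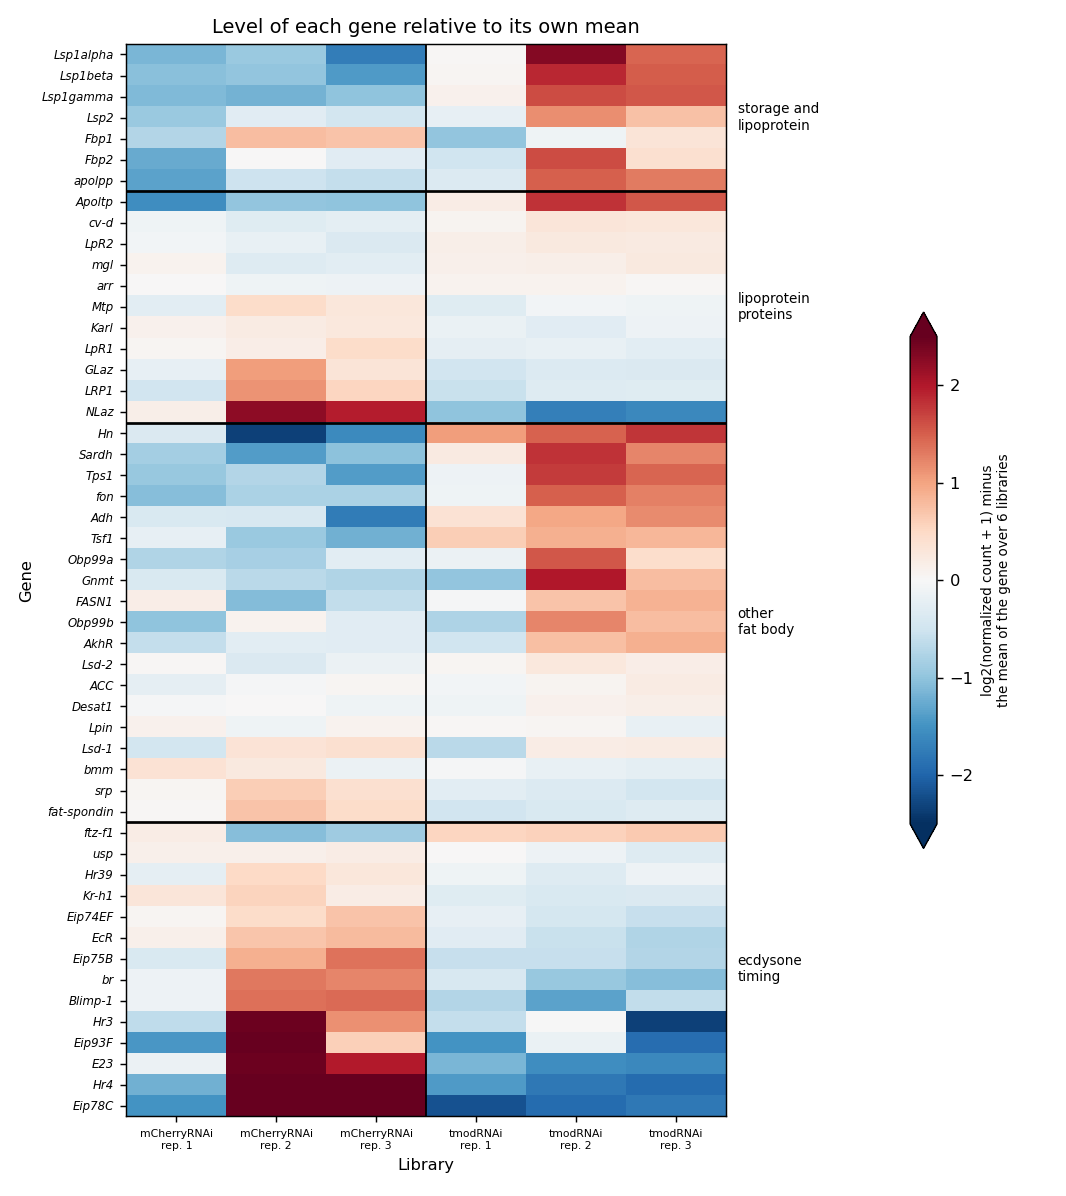
Log2(normalized count + 1) of each tested gene minus its own mean over the 6 libraries, for the 7 storage and lipoprotein genes, the lipoprotein list, the other fat body genes and the ecdysone timing genes; the colour scale saturates at 2.5 in either direction. The Lsp1 genes share a pattern with Apoltp, Sardh and Tps1, low in the controls and highest in tmodRNAi replicates 2 and 3, while Fbp1 is low in replicate 1 of each genotype.

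The genes whose profile over the 6 libraries was most like each member were found among 9198 others that averaged 50 normalized counts or more, by the root mean square difference of mean-centred log2 values. The nearest to Lsp1alpha was CG43742 (0.11), at 9.62 to 167 normalized counts a far scarcer transcript, followed by Lsp1beta (0.22). CG43742 had 14.7, 17.7 and 9.62 in the controls, so it reached the average of 50 only through the knockdown libraries. The nearest to Lsp1beta were Argl, the gene of argininosuccinate lyase (0.12), and Tps1, that of trehalose-6-phosphate synthase (0.15). Argl (0.19) and Sardh (0.21) were nearest to Lsp1gamma. For apolpp they were CR43186 and CG1468 (0.16 each), and for Lsp2 they were Npc2g (0.13), a gene of the sterol-binding NPC2 family, and CG18563 (0.16). CR43186, at 15.7, 36.2 and 27.8 normalized counts in the controls, likewise reached the average of 50 only through the knockdown libraries. Fbp1 lay closest to Tsp42Ep, a tetraspanin gene (0.16), and GstE9, a glutathione S-transferase gene (0.20), neither of which passed the threshold. Fbp2 had no close match, its nearest being Obp99b (0.27) and CG18563 (0.29). Among the members themselves, the Lsp1 genes lay within 0.42 of each other, whereas Fbp1 lay between 0.90 and 1.69 from every other member.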

How the data were processed

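The authors deposited 1 table of normalized counts, a signal that is never negative, with 1 column per library. Dividing a column by its lowest nonzero entry gave whole numbers for 100% of entries (relative tolerance 1e-06), so the deposited values are read counts divided by 1 factor per library, and whole reads were recovered. The submitters' processing notes name DESeq2 1.30.1 and dm6; aligner, counter, annotation and strand setting are not given in the sources used here. Genes averaging 10 normalized counts or more (10969) were tested on log2(normalized count + 1) with limma 3.58.1 (trended eBayes, R 4.3.3). Benjamini-Hochberg adjustment ran over the 10969 genes, and the threshold was 0.05. Fold changes are on that log2 scale, which understates changes of low genes. P-values cover the spread between these pools of larvae. Intervals of counts and floors cover counting error only.

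Alternatives were other pseudocounts, filters and scalings, limma without trend, edgeR 4.0.16 and DESeq2 1.42.0 on recovered reads, the replicate block and leaving out each library. Fits were tested on simulated counts. Positions and exon lengths are from BDGP6.54, which has dm6 coordinates. Of 135 list entries, 2 were matched by synonym and 2 were not matched. The members, lists and tests were chosen with earlier results of these data known. Named were the members, tmod, for each list at most the 3 most significant genes past the threshold, and the 2 nearest profiles per member. No sequence of the genes was used here.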

Additional observations from a re-analysis of the deposited data

How the results depend on the processing

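Each member kept the direction of its log2 fold change under each alternative tried, and so did the members' share of the counts. The number of members past the threshold was 3, where 23.8% of all tested genes passed. It was also 3 in edgeR (22% of all genes) and under each other pseudocount, filter and scaling (14.6% to 28.6%). It was 1 in limma without trend (5 at an unadjusted p under 0.05), which called 8.7% of all genes. DESeq2 called 5 members and 40.1% of all genes. For other fat body genes the number was 7, with 3 in limma without trend and 11 in DESeq2, beside the same shares. Leaving out 1 library gave 0 to 3 members and 0 to 10 other fat body genes. The 10 came from the fit without mCherryRNAi replicate 1, which called 47.4% of all genes. In the fits with 0 members called by limma, 3 to 5 had an unadjusted p under 0.05. Over all tested genes, deviations of same-numbered libraries from their group means correlated at -0.057, 0.024 and -0.018, so no general pairing by replicate number was seen. This correlation was not computed for the members alone, nor was the change of SE with the block over all genes. Whether the members differed from other genes in pairing was therefore not tested. With the replicate block the SE went from 0.37 to 0.17 for Lsp2 and from 0.52 to 0.19 for Fbp1. It went from 0.59 to 0.22 for Fbp2 and from 0.52 to 0.25 for apolpp, and less far for the Lsp1 genes (0.58 to 0.48 for Lsp1alpha). Whether same-numbered pools shared a cross or day is not given. With the replicate block, limma called 0 members, 0 other fat body genes and 0 genes in all, where 6, 10 and 3969 had an unadjusted limma p under 0.05. The share difference stayed 0.439 percentage points with the block (exact sign-flip permutation p = 0.25). The lowest value of any member, 4056 normalized counts, lay far above the floor of 3 reads, so the limit is 3 libraries per genotype and their spread.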

Other observations

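Secreted signals known from the fat body were listed separately (10 genes, 9 tested), and 2 rose and 2 fell, with a median log2 fold change of 0.08. These calls were 44.4% of those tested, where 23.8% of all tested genes were called. ImpL2, the gene of a binding protein that restrains insulin signalling, had 59997, 49047 and 70929 normalized counts in the controls and 40740, 24854 and 19775 in the knockdown (log2 fold change -1.13, SE 0.29, limma adjusted p = 0.043). daw, the gene of an activin-type ligand, fell from 3789 ± 859 to 1985 ± 213 (SD, n = 3 each; log2 fold change -0.91, limma adjusted p = 0.031). Sdr, the gene of a secreted decoy of the insulin receptor, rose from 265 ± 8.0 to 400 ± 65 (log2 fold change 0.58, limma adjusted p = 0.043). ImpL2 and daw are also made outside the fat body.

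The nearest tested protein-coding gene on each side of each member gave 14 neighbours, a comparison made after the data were seen, with the genes named here chosen by their values. The median log2 fold change over the 14 was 0.02. Of these, 2 passed the threshold, as higher, where 23.8% of all tested genes passed and 10.9% as higher. They were Cpr11A beside Lsp1alpha (4.93, limma adjusted p = 0.034), a cuticle protein gene whose control values were 9139, 585 and 659 normalized counts, and yps, a Y-box RNA-binding protein gene, beside Lsp2 (0.68, limma adjusted p = 0.031). CG2556, on the other side of Lsp1alpha, had a log2 fold change of -2.99 (limma adjusted p = 0.11).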
